A study of Mus musculus with 6 samples.

Results

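The 9 genes described here are 4 adult globin genes (Hba-a1, Hba-a2, Hbb-bs and Hbb-bt) and 5 genes that red cell precursors use as they mature (Alas2, Slc4a1, Klf1, Epor and Car2). They were chosen by name, with earlier results of these data known, and each of the 9 symbols matched 1 identifier among the 28773 gene IDs of the series. RNA had been sequenced from CD8+ T cells of mouse spleens on day 35 in 6 samples, 3 from MWA+PBS and 3 from MWA+2DG. In both groups a subcutaneous tumor had been treated by microwave ablation (MWA), which heats the tumor through an inserted antenna. MWA+PBS mice then received PBS, the vehicle, and MWA+2DG mice received 2-deoxy-D-glucose (2DG), a glucose analogue that blocks glycolysis, injected into the abdomen. All mice of the study were female. The labels give neither the strain nor the tumor line behind these 6 samples, and whether a sample holds 1 mouse or a pool is also left unsaid. The p-values therefore measure the spread between samples, which may be partly technical. Spleen cells had been treated with a reagent that lyses erythrocytes and then passed through a CD8+ T cell isolation kit, so red cells and their precursors were not the intended cells. MWA+PBS samples carry the numbers 1 to 3 and MWA+2DG samples 4 to 6.

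Red cells are made from progenitors that pass through erythroblast stages, mostly in bone marrow and, in mice, also in the red pulp of the spleen. Erythropoietin, a hormone released by the kidney, binds its receptor Epor on early progenitors and keeps them alive. The transcription factors GATA1 and KLF1 then switch on the globin genes, the heme enzymes and the proteins of the red cell membrane. Alas2 encodes the erythroid form of the first enzyme of heme synthesis, Slc4a1 encodes band 3, the anion exchanger of the red cell membrane, and Car2 encodes carbonic anhydrase 2, a soluble enzyme that interconverts carbon dioxide and bicarbonate. T cells do not make hemoglobin. In a bulk sample, fewer cells of a type and less RNA per cell cannot be told apart.

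The globin genes come in near-identical pairs, which limits how reads can be divided between them. In the GENCODE M21 transcripts, the coding sequences of Hba-a1 and Hba-a2, both on chromosome 11, were identical at 428 of 429 bases. Those of Hbb-bs and Hbb-bt, both on chromosome 7, were identical at 443 of 444 bases. Between the alpha and beta genes the coding identity was 61.1% to 61.3%. The single differing base of each pair is shown in capitals within 31 coding bases, because it is the whole coding difference between the copies. It is C381T between Hba-a1 and Hba-a2 and C417T between Hbb-bs and Hbb-bt, counted from the first base of the start codon, with the first-named gene's base first.
Hba-a1: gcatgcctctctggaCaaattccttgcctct
Hba-a2: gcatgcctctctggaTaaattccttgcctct
Hbb-bs: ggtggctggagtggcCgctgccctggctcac
Hbb-bt: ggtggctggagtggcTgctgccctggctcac
Values of a single copy are therefore uncertain, and the sum of each pair is given beside them. The reference names these beta genes after the haplotype of C57BL/6 mice. BALB/c mice, which the study also used, carry another beta globin haplotype, and reads of those genes would be assigned to these names, so the division between Hbb-bs and Hbb-bt is uncertain for that reason too.

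The start regions of the members were examined for the motifs that erythroid factors are known to bind. RefSeq promoter sequences (GRCm38.p6, 250 bases before and 50 bases after the start) were found for 7 of the 9 members. The motifs searched on both strands were the GATA motif (the letters GATA, preceded by A or T and followed by A or G), the CACC box recognised by KLF factors (CACACCC or its variant CCCACCC) and the TATA box (TATAAA). The GATA motif was present in 6 of the 7 windows, against 29.8% of 32851 promoters of the same length, and a CACC box in 4 of the 7, against 23.7%. The Hba-a1 and Hba-a2 windows share the letters around their GATA match (at -183 and -186), so they are not 2 separate cases. Both motifs were present in 4 of the 7 windows, those of Hbb-bs, Alas2, Klf1 and Epor, against 5.67% of all promoters. A TATA box was present in 2 of the 7, against 13.6%. A match describes the letters only, and no binding was measured. The 5 stretches printed here carry a GATA motif each and show where it lies in an alpha globin, a beta globin, the heme enzyme, the transcription factor and the receptor. Matches are in capitals, read 5′ to 3′ on the gene's strand, and bases that lie within the gene as GENCODE M21 draws it are left out. The regions are chr11:32296242-32296488 (plus strand) for Hba-a2, chr7:103828097-103828178 (minus strand) for Hbb-bs, chrX:150547167-150547374 (plus strand) for Alas2, chr8:84901732-84901927 (plus strand) for Klf1 and chr9:21963577-21963826 (minus strand) for Epor.
Hba-a2: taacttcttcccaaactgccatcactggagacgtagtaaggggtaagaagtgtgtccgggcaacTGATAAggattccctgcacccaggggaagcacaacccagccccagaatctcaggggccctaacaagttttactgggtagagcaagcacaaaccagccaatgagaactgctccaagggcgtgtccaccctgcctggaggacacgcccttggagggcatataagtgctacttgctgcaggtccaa
Hbb-bs: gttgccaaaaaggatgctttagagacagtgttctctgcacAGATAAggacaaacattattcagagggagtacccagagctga
Alas2: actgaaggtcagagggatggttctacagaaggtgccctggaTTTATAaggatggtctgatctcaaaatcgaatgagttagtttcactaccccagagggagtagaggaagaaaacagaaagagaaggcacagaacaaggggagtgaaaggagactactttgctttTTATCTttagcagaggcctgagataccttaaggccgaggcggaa
Klf1: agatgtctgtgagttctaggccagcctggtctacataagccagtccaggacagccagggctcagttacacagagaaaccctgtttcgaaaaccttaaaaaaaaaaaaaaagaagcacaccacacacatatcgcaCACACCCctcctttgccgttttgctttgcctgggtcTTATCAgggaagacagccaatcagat
Epor: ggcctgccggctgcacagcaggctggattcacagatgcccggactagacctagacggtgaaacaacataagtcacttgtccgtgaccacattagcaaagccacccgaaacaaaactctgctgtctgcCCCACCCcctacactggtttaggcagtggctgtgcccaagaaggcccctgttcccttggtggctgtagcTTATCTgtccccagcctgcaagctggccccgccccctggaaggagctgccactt
The GATA match began at position -186 from the RefSeq start in Hba-a2, at -210 in Hbb-bs, at -86 in Alas2, at -80 in Klf1 and at -54 in Epor. In Alas2, Klf1 and Epor the motif lies on the other strand, so its complement is what the capitals spell. The CACC box began at -116 in Klf1 and at -123 in Epor. The CACC boxes of Alas2 (3 matches that overlap one another) and of Hbb-bs lie closer to the start, outside the printed bases. The capitals early in the Alas2 stretch are a TATA box on the other strand.

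The values are FPKM, fragments per kilobase of transcript and per mapped fragments, as the authors deposited them. FPKM totals were between 291803 and 313257 per sample, and between 12198 and 12515 genes had an FPKM of at least 1. The read depth is unknown, so no counting interval can be given. Fold changes are the difference of mean log2(FPKM + 1), MWA+2DG minus MWA+PBS, from a limma fit over the 12444 genes with a mean FPKM of at least 1 over the 6 samples, and p-values are Benjamini-Hochberg adjusted over those genes. The added 1 understates the change of genes near or below 1 FPKM. Samples of 1 group correlated across genes with r between 0.984 and 0.989, samples of different groups with r between 0.934 and 0.943, and no sample stood apart from its group. The labels name no batch, and a batch matching the groups and the treatment cannot be told apart. The labelled cell type was present in each sample: Cd8a was 231.5 ± 6.96 FPKM (SD, n = 3) in MWA+PBS against 366.4 ± 9.47 in MWA+2DG.

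All 9 members were lower in MWA+2DG. Each passed an adjusted p under 0.05, in a comparison where 17.1% of all genes tested were called lower. The members were chosen with earlier results of these data known, so the shares of all genes given here are descriptions and no test. In each of the 9 the lowest MWA+PBS sample was above the highest MWA+2DG sample, which held for 21.9% of all genes tested. The median log2 fold change of the members was -1.50, beside 0.05 for all genes tested. Only 2.91% of the genes tested had a log2 fold change at or below that of Alas2, the least changed member on this scale. Of the members, 4 (Alas2, Slc4a1, Klf1 and Epor) had a mean below 1 FPKM in MWA+2DG and entered the test through their MWA+PBS values, so they had to be lower in MWA+2DG to be in it. The 2.91% is set by Alas2, 1 of these 4, so it is a description only. It was not recomputed without the filter. With no filter on low values, where 9.27% of 28458 genes were called lower, all 9 members were also called lower. The plot of FPKM by sample shows the separation of the groups.

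**Figure D1:**
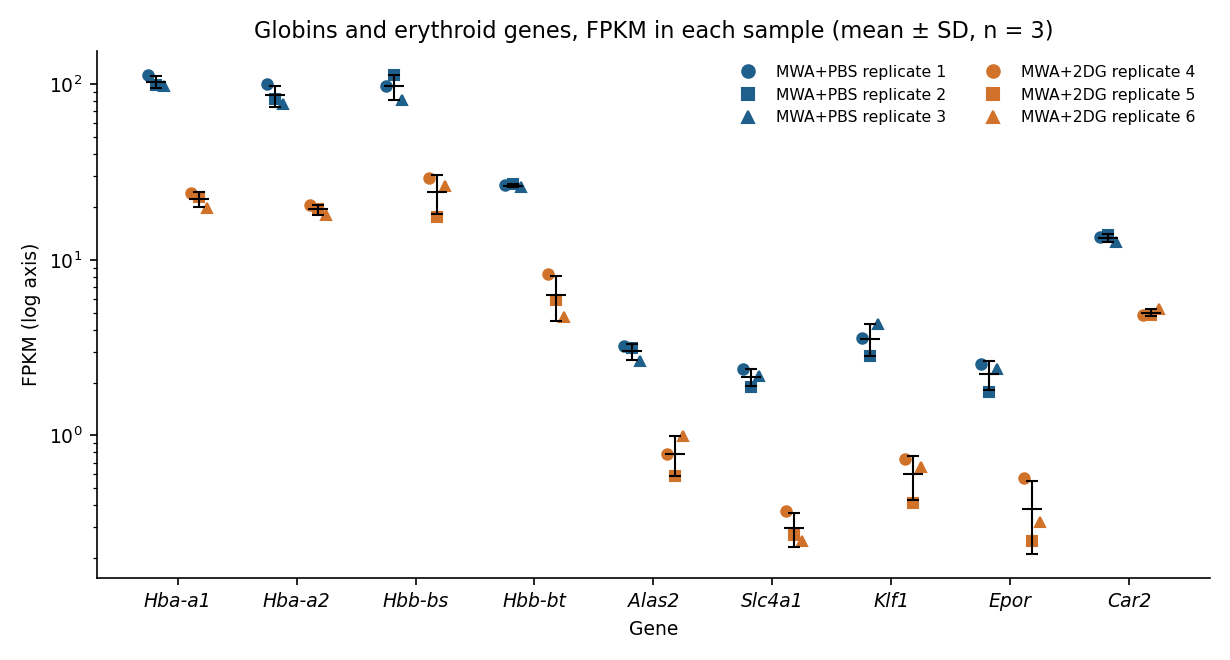
FPKM (log axis) of the 9 genes in each of the 6 samples, with the mean and SD of each group of 3 in black. The MWA+PBS points (blue) lie above the MWA+2DG points (orange) for each gene, and the globins are the highest of the 9 in both groups apart from Hbb-bt, whose MWA+2DG range overlaps that of Car2.

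The alpha globin genes encode the alpha chain of adult hemoglobin, which pairs with beta chains. Hba-a1 (ENSMUSG00000069919) was 113.11, 98.86 and 97.47 FPKM in MWA+PBS against 24.07, 22.67 and 19.79 in MWA+2DG. The groups were far apart, and within each group the values lay close together. The means were 103.1 ± 8.66 and 22.2 ± 2.18 (SD, n = 3), a ratio of 4.65. The log2 fold change of -2.17 ± 0.09 (SE) was the strongest of the 9 on the FPKM + 1 scale (limma adjusted p = 3.56e-06). By the ratio of means, Slc4a1, Klf1 and Epor changed more. Hba-a2 (ENSMUSG00000069917) was 99.52, 82.23 and 76.74 FPKM in MWA+PBS against 20.59, 19.39 and 18.06 in MWA+2DG. Its log2 fold change was -2.09 ± 0.10 (adjusted p = 6.29e-06). The division of the alpha pair, which is uncertain as said above, was similar in both groups. Hba-a1 held 54.6 ± 1.38% of the summed alpha FPKM in MWA+PBS against 53.4 ± 0.93% in MWA+2DG, and the ranges overlapped. The summed alpha FPKM was 189.3 ± 20.5 in MWA+PBS against 41.5 ± 3.44 in MWA+2DG, a ratio of 4.56.

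The beta globin genes encode the partner chain. Hbb-bs (ENSMUSG00000052305) was 97.01, 113.02 and 80.73 FPKM in MWA+PBS against 29.38, 17.57 and 26.14 in MWA+2DG. It was the most variable globin within MWA+PBS, and replicate 5 was the lowest of its MWA+2DG samples, but the groups did not overlap. The log2 fold change was -1.97 ± 0.19 (adjusted p = 0.000216). Hbb-bt (ENSMUSG00000073940) was 26.60, 26.86 and 25.86 FPKM in MWA+PBS against 8.28, 5.89 and 4.71 in MWA+2DG. Its MWA+PBS samples hardly differed, with a coefficient of variation of 1.96%, while its MWA+2DG samples varied by 28.9%. The log2 fold change was -1.94 ± 0.16 (adjusted p = 8.78e-05). The summed beta FPKM was 123.4 ± 16.6 in MWA+PBS against 30.7 ± 7.10 in MWA+2DG, a ratio of 4.02. Hbb-bs held 78.3 ± 2.53% of the beta sum in MWA+PBS against 79.2 ± 5.03% in MWA+2DG, a difference within the spread between samples.

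Taken as a sum, the 4 globins were 336.2, 321.0 and 280.8 FPKM in MWA+PBS replicates 1, 2 and 3 and 82.3, 65.5 and 68.7 in MWA+2DG replicates 4, 5 and 6. This was 0.102 ± 0.00789% of the FPKM total in MWA+PBS against 0.0242 ± 0.00251% in MWA+2DG. The share was 4.20 times as large in MWA+PBS. The ratio of summed alpha to summed beta FPKM was 1.72, 1.29 and 1.63 in MWA+PBS against 1.19, 1.79 and 1.23 in MWA+2DG. These ratios overlapped between the groups, and replicates 2 and 5 each departed from the other samples of their group, in opposite directions. The alpha to beta ratio was 1.55 ± 0.23 in MWA+PBS against 1.40 ± 0.34 in MWA+2DG, a difference within the spread between samples.

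Of 12 further globin genes listed, 4 were matched by symbol to an ID of the files, and none of these 4 reached a mean of 1 FPKM. Hbq1b, the theta globin gene, averaged 0.113 FPKM in MWA+PBS against 0.02 in MWA+2DG. Neuroglobin (Ngb) averaged 0.12 and 0.0333, cytoglobin (Cygb) 0.0833 and 0.0967, and myoglobin (Mb) 0.0133 and 0. None of these 4 was called by limma without the filter, and 1 (Ngb) had an unadjusted p under 0.05. The symbols of the remaining 8, among them Hbb-b1, Hbb-b2 and the embryonic globin genes, were not matched, and those genes were not analysed here.

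Alas2 (ENSMUSG00000025270) commits red cell precursors to making heme in the mitochondria. It was 3.23, 3.15 and 2.65 FPKM in MWA+PBS against 0.78, 0.59 and 0.99 in MWA+2DG. All MWA+2DG samples were below 1 FPKM and all MWA+PBS samples above 2. The means were 3.01 ± 0.314 and 0.787 ± 0.20, a ratio of 3.83, and the log2 fold change was -1.17 ± 0.11 (adjusted p = 0.00022). With a pseudocount of 0.1 in place of 1 it was -1.83.

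Slc4a1 (ENSMUSG00000006574) encodes band 3, which exchanges chloride for bicarbonate and anchors the membrane skeleton. It was 2.38, 1.89 and 2.17 FPKM in MWA+PBS against 0.37, 0.27 and 0.25 in MWA+2DG. The MWA+2DG samples held 13.8% of the MWA+PBS mean, the lowest such share among the 9. The log2 fold change was -1.28 ± 0.11 (adjusted p = 9.99e-05), and -2.51 with a pseudocount of 0.1.

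Klf1 (ENSMUSG00000054191) encodes the erythroid Krüppel-like factor, which activates the adult beta globin gene. It was 3.57, 2.82 and 4.29 FPKM in MWA+PBS against 0.73, 0.41 and 0.66 in MWA+2DG. The samples of a group varied more than those of Alas2 in MWA+PBS, with a coefficient of variation of 20.6% against 10.4%. The means were 3.56 ± 0.735 and 0.60 ± 0.168, a ratio of 5.93, and the log2 fold change was -1.50 ± 0.14 (adjusted p = 0.000185). With a pseudocount of 0.1 it was -2.40.

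Epor (ENSMUSG00000006235), the receptor for erythropoietin, was 2.55, 1.76 and 2.38 FPKM in MWA+PBS against 0.57, 0.25 and 0.32 in MWA+2DG. It had the widest relative spread of the 9 in MWA+2DG, a coefficient of variation of 44.3%, at levels where 2 decimals limit the precision. The groups nevertheless did not overlap. The mean ratio was 5.87, and the log2 fold change was -1.23 ± 0.14 (adjusted p = 0.000459). With a pseudocount of 0.1 it was -2.32.

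Car2 (ENSMUSG00000027562), which is found in red cells and also in other cell types such as osteoclasts, was 13.42, 13.92 and 12.60 FPKM in MWA+PBS against 4.86, 4.87 and 5.28 in MWA+2DG. Its samples were the closest together of any member in MWA+2DG, with coefficients of variation of 5.01% in MWA+PBS against 4.79% in MWA+2DG. The means were 13.3 ± 0.666 and 5.00 ± 0.240. The ratio of 2.66 was the smallest of the 9, and the log2 fold change was -1.25 ± 0.06 (adjusted p = 8.73e-06).

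**Figure D2:**
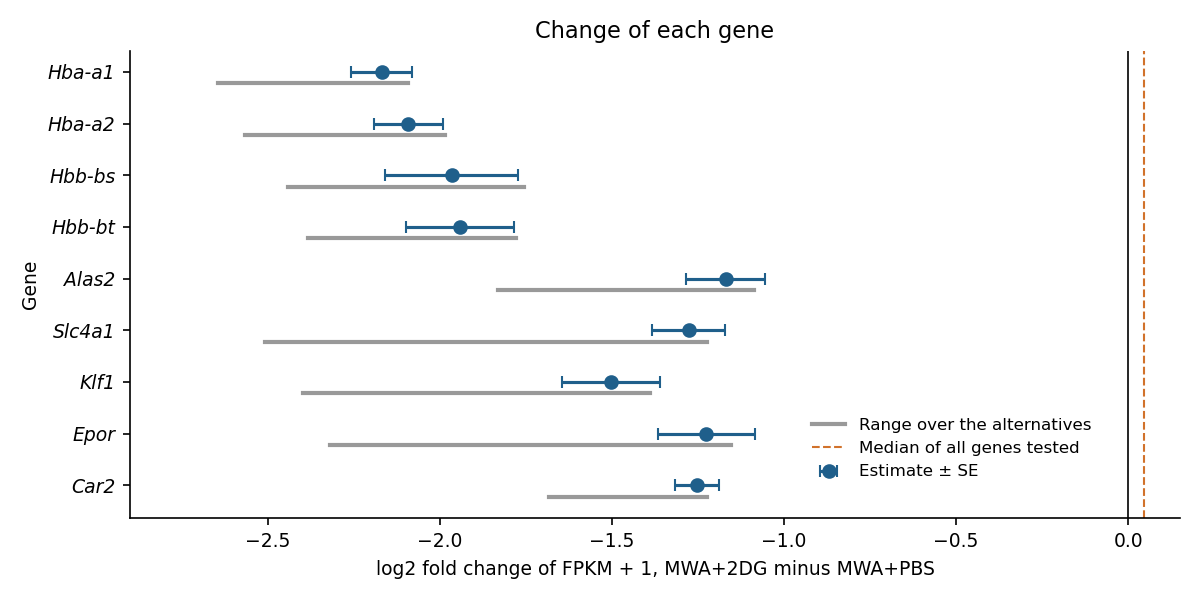
Log2 fold change of FPKM + 1 (MWA+2DG minus MWA+PBS) of each of the 9 genes, with the estimate ± SE in blue and the range over the processing alternatives in grey. Each estimate and each range lies below 0, and the dashed line marks the median of all genes tested at 0.05.

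The order of the log2 fold changes is not the order of the ratios, because the added 1 acts most on low genes. By the ratio of means, Slc4a1 (7.24), Klf1 (5.93) and Epor (5.87) changed most, the globins lay between 3.98 and 4.65, Alas2 was at 3.83 and Car2 at 2.66. Whether the ratios of different members differ was not tested. Within MWA+PBS, Hba-a1, Hbb-bs and Hba-a2 had the highest levels with ranges that overlapped, followed by Hbb-bt and Car2, whose ranges were separate from their neighbours. Klf1 and Alas2 overlapped below them, as did Epor and Slc4a1. In MWA+2DG the leading 3 were Hbb-bs, Hba-a1 and Hba-a2, again overlapping, Hbb-bt and Car2 now overlapped, and the ranges of Alas2, Klf1, Epor and Slc4a1 each overlapped the next.

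Samples of 1 group did not rank alike for all members. MWA+2DG replicate 4 was the highest of its group for 7 of the 9, and replicate 5 for 0 of the 9. In MWA+PBS, replicate 1 was the highest for 5 of the 9 and replicate 2 for 3. Replicate 2 was also the lowest for 3, namely Slc4a1, Klf1 and Epor, while it was the highest for Hbb-bs, Hbb-bt and Car2.

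Set against the globin sum of the same sample, Alas2 differed between the groups by less than the spread between samples. Its log2 ratio to the globin sum was -6.70, -6.67 and -6.73 in MWA+PBS against -6.72, -6.80 and -6.12 in MWA+2DG. The log2 ratio of Klf1 was -6.47 ± 0.41 in MWA+PBS against -6.95 ± 0.33 in MWA+2DG, and that of Epor was -7.15 ± 0.33 and -7.65 ± 0.44, both with overlapping ranges. Slc4a1 was lower relative to the globins in MWA+2DG without overlap, at -7.14, -7.41 and -7.02 in MWA+PBS against -7.80, -7.92 and -8.10 in MWA+2DG. Car2 was higher relative to the globins in MWA+2DG without overlap, at -4.65, -4.53 and -4.48 in MWA+PBS against -4.08, -3.75 and -3.70 in MWA+2DG. These ratios are descriptions with no test, and how often such ratios separate the groups over all genes was not computed. The Slc4a1 ratio rests on MWA+2DG values of 0.37, 0.27 and 0.25 FPKM, where 2 decimals limit the precision.

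**Figure D3:**
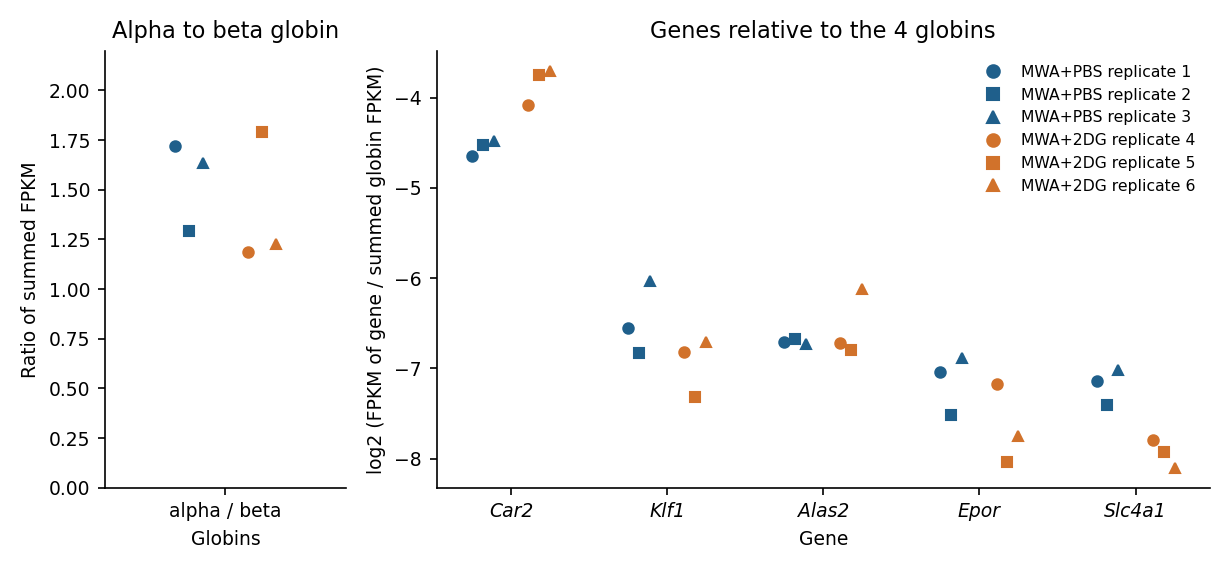
Left, the ratio of summed alpha to summed beta globin FPKM in each of the 6 samples. Right, the log2 ratio of 5 genes to the summed FPKM of the 4 globins. Blue is MWA+PBS and orange is MWA+2DG. The groups do not overlap for Car2 (higher in MWA+2DG) and Slc4a1 (lower, from MWA+2DG values below 1 FPKM), and overlap for the others. No ratio was tested.

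The genes with the most similar profile over the 6 samples were sought for 1 globin, the heme enzyme and the transcription factor. Likeness was the root mean square difference between the log2(FPKM + 1) profiles after each was centred on its own mean. For Hbb-bs the nearest were Gm49378 (0.13), Igkv4-59 (0.13) and Igkv19-93 (0.15), of which the latter are immunoglobulin kappa variable genes. They were nearer than any other member, of which Hba-a2 (0.27) was the nearest. For Alas2 the nearest were Serpinb6a (0.06), Ighm (0.06), the immunoglobulin mu heavy chain, and Rab38 (0.07), and Car2 (0.09) was the nearest member. For Klf1 they were Gm15930 (0.07), Slc48a1 (0.10), a heme transporter, and Crip2 (0.10), and Epor (0.17) was the nearest member. With 6 samples in 2 groups, this measure mostly follows the size of the difference between the groups.

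Other genes were read from 9 hand-written lists of erythroid, heme, iron and related genes, called the erythroid lists here. They are not all erythroid genes: 3 of them (Slc40a1, Hmox1 and Cd163) are also on the marker list of red pulp macrophages and monocytes. The lists of heme synthesis and iron handling hold genes that most cells express. Of 19 genes of heme synthesis and mitochondrial import, 10 were called lower (17.1% of all genes tested), 2 were called higher (22.3% of all) and 7 were not called, with a median log2 fold change of -0.22. Alad, which joins aminolevulinic acid molecules in the step after Alas2, fell by 0.98 on the log2 scale, from a mean of 12.7 to 5.99 FPKM (adjusted p = 0.000216). Slc25a39, a mitochondrial carrier, had a log2 fold change of -0.48 (adjusted p = 0.00311). The genes called higher were Ppox and Uros, enzymes of the same pathway, with log2 fold changes of 0.45 (adjusted p = 0.00513) and 0.41 (adjusted p = 0.0158). Both calls were lost when samples were rescaled to equal levels of the T cell marker list (0.01, adjusted p = 0.899, and 0.03, adjusted p = 0.788). Alas1, the form of the enzyme used outside the red cell lineage, averaged 4.83 and 4.30 FPKM and was not called (log2 fold change -0.14, adjusted p = 0.169). Alas1 is named here outside the rule for named genes, as the counterpart of Alas2, after its values were seen. The count of 10 became 6 with no filter on low values, where 9.27% of all genes were called lower. It was 5 without MWA+PBS replicate 1, and 6 without MWA+2DG replicate 5 or without replicate 6.

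Of 13 genes of iron uptake and storage, 9 were called lower (17.1% of all genes tested) and 1 higher (22.3% of all), with a median log2 fold change of -0.48. Among the 9 called lower, 2 entered through their MWA+PBS values alone. With no filter 8 were called lower (9.27% of all) and 1 higher (9.03% of all). Slc40a1, the iron exporter ferroportin, averaged 37.2 and 5.74 FPKM (log2 fold change -2.50, adjusted p = 4.04e-07), and Ftl1, the ferritin light chain, 567.5 and 203.6 (-1.47, adjusted p = 4.84e-06). Ferroportin is also a gene of red pulp macrophages, which recycle the iron of old red cells. Tfrc, the transferrin receptor through which erythroblasts take up iron, averaged 16.6 and 13.6 FPKM (log2 fold change -0.27, adjusted p = 0.0288), and its call was lost without replicate 1, 2, 4 or 5 (adjusted p up to 0.0804). Ireb2, an iron sensor that binds RNA, was the gene called higher (log2 fold change 0.37, adjusted p = 0.00556), but its direction turned when samples were rescaled to equal T cell marker levels (-0.08, adjusted p = 0.385).

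The red cell membrane and skeleton list held 21 genes, of which 8 reached a mean of 1 FPKM. Of these 8, 5 were called lower (17.1% of all genes tested) and 0 higher (22.3% of all), with 1 (Mpp1) higher at an unadjusted p under 0.05 in the limma fit. Aqp1, a water channel, averaged 6.75 and 2.07 FPKM (log2 fold change -1.33, adjusted p = 3.16e-05). Ermap and Kel, both blood group proteins, had log2 fold changes of -1.28 (adjusted p = 0.00011) and -0.91 (adjusted p = 0.00189), and Gypc, glycophorin C, of -0.50 (adjusted p = 0.00131). Of the 8, 3 entered through their MWA+PBS values alone. With no filter, 15 of the 21 were called lower (9.27% of all) and 0 higher (9.03% of all).

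Of 17 erythroid transcription factors tested, 10 were called lower (17.1% of all genes tested) and 0 higher (22.3% of all), with a median log2 fold change of -0.43. Gata2, which acts in progenitors and is also a gene of mast cells and basophils, averaged 5.52 and 1.33 FPKM (log2 fold change -1.48, adjusted p = 2.59e-05). Lmo2, a bridging partner of GATA1 and TAL1, averaged 9.76 and 3.36 (-1.31, adjusted p = 0.000112). Gata1, the master regulator of the red cell lineage, averaged 3.72 and 1.85 FPKM, a log2 fold change of -0.74 (adjusted p = 0.0106). The least changed of the 10 were Foxo3 (-0.43, adjusted p = 0.00762) and Klf3 (-0.19, adjusted p = 0.0297), which T cells also express, and the call of Klf3 was lost without replicate 1, 3, 4 or 6 (adjusted p up to 0.106). No factor was called higher, and none had an unadjusted p under 0.05 in that direction. Of the 17, 3 entered the test through their MWA+PBS values alone.

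Of 13 genes of the erythropoietin receptor pathway tested, 6 were called lower (17.1% of all genes tested) and 1 higher (22.3% of all), with a median log2 fold change of -0.14. Lyn, a Src family kinase of myeloid, B and erythroid cells, averaged 22.0 and 7.38 FPKM (log2 fold change -1.45, adjusted p = 2.55e-06), and Kit, the stem cell factor receptor of progenitors and mast cells, 5.15 and 1.64 (-1.21, adjusted p = 8.26e-05). Crkl, an adaptor, had a log2 fold change of -0.24 (adjusted p = 0.0401). Bcl2l1, which encodes the survival protein BCL-XL, was called higher, at 0.23 (adjusted p = 0.0462). That call was lost in 10 of the 14 alternatives that could test it, on leaving out any sample but MWA+PBS replicate 3 among them (adjusted p up to 0.15). The call of Crkl was lost in 7 of 15, on leaving out replicate 1, 3, 4 or 6 among them (adjusted p up to 0.13). Jak2, the kinase bound to Epor, averaged 28.1 and 30.6 FPKM and was not called (adjusted p = 0.259). Jak2 is named outside the rule for named genes, after its values were seen.

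Of 19 erythroblast maturation genes tested, 8 were called lower (17.1% of all genes tested) and 3 higher (22.3% of all), with a median log2 fold change of -0.22. Hemgn, a nuclear protein of hematopoietic progenitors and erythroblasts, averaged 3.63 and 0.573 FPKM (log2 fold change -1.55, adjusted p = 0.000131) and entered the test through its MWA+PBS values alone. Blvrb, an abundant reductase of red cells, averaged 5.62 and 1.51 (-1.40, adjusted p = 3.73e-05). Isg20 (0.37, adjusted p = 0.023) and Bpgm (0.32, adjusted p = 0.0484), which makes the regulator of oxygen affinity in red cells, were the highest of those called higher. The call of Isg20 was lost without replicate 2, 3 or 6 (adjusted p up to 0.0798), and that of Bpgm without any sample but replicate 2 (adjusted p up to 0.148). The third, Ctse, named after its values were seen, had a log2 fold change of 0.18 (adjusted p = 0.0273), and its call was lost without replicate 1, 3, 4 or 6 (adjusted p up to 0.102). The count called higher was 0 without replicate 3 or without replicate 6, and 1 or 2 on leaving out any other sample. With no filter, 17 of 29 were called lower (9.27% of all) and 1 higher (9.03% of all).

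Car2 can be set beside the other carbonic anhydrases, of which 4 of 11 were tested. Car13 averaged 2.38 and 0.76 FPKM (log2 fold change -0.93, adjusted p = 0.000633) and was the 1 called lower (17.1% of all genes tested), and Car11 averaged 0.853 and 1.71 (0.54, adjusted p = 0.0215) and was the 1 called higher (22.3% of all), a call lost without replicate 1, 4 or 6 (adjusted p up to 0.0755). Car13 entered the test through its MWA+PBS values alone and Car11 through its MWA+2DG values alone, so each had to differ in the direction called. With no filter, 2 of the 11 were called lower (9.27% of all) and 0 higher (9.03% of all). Car1, the other carbonic anhydrase abundant in red cells, was chosen for mention after its values were seen. It was 19.94, 36.23 and 21.03 FPKM in MWA+PBS against 20.62, 20.11 and 22.58 in MWA+2DG. The groups overlapped, and a single sample, MWA+PBS replicate 2, stood above the other 5. The log2 fold change was -0.22 (adjusted p = 0.413), and 0.04 without that sample (adjusted p = 0.656). Each Car1 value lay above each Car2 value. Car1 was called lower when samples were rescaled to the T cell marker list (-0.69, adjusted p = 0.012).

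Heme breakdown genes act mostly in macrophages. Of 6 tested, 4 were called lower (17.1% of all genes tested) and 1 higher (22.3% of all), with a median log2 fold change of -0.98. Hmox1, heme oxygenase 1, averaged 221.2 and 26.9 FPKM (log2 fold change -2.99, adjusted p = 1.87e-07), and Cd163, the receptor for hemoglobin bound to haptoglobin, 13.5 and 2.22 (-2.19, adjusted p = 5.91e-06). Blvra, a biliverdin reductase, had a log2 fold change of -0.56 (adjusted p = 0.00538), and Blvrb is given above. Hp, haptoglobin itself, was called higher (0.36, adjusted p = 0.0454), a call lost without any sample but replicate 2 (adjusted p up to 0.132).

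**Figure D4:**
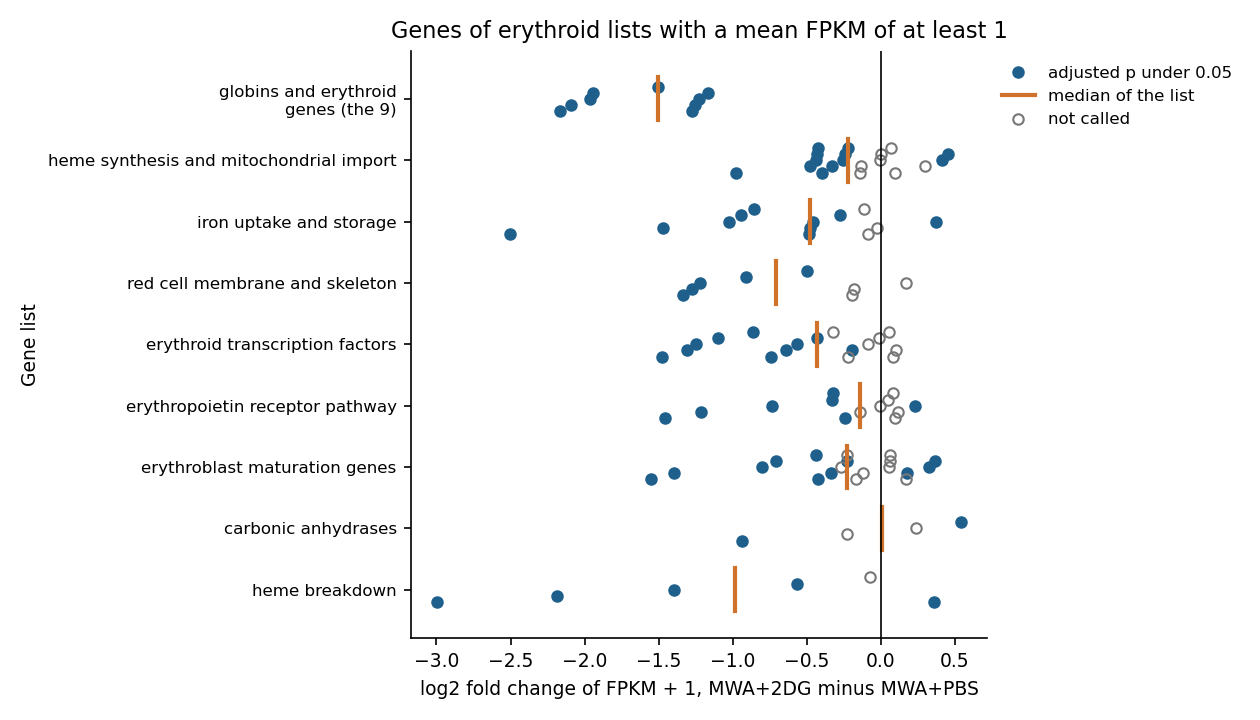
Log2 fold change of FPKM + 1 (MWA+2DG minus MWA+PBS) of each tested gene of the erythroid lists, 1 row per list. Filled points passed an adjusted p under 0.05, open points did not, and the orange bar is the median of the list. The 9 globins and erythroid genes all lie below -1, while the heme synthesis and erythropoietin pathway lists spread on both sides of 0. Hmox1, Cd163 and Slc40a1, in the heme breakdown and iron rows, are also on the macrophage marker list.

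Markers of other cell types moved between the groups beside the members, and their part in the result was not tested. The counts below stand beside 17.1% of all genes tested called lower and 22.3% called higher. The erythroid marker list, which shares 8 of its 14 genes with the members, summed to 304.2 to 359.0 FPKM in MWA+PBS against 69.8 to 88.6 in MWA+2DG. The 4 member globins alone summed to 280.8 to 336.2 and 65.5 to 82.3, so this sum mostly repeats the members and is no separate reading. The 11 genes of the list that reached a mean of 1 FPKM, 6 of them through their MWA+PBS values alone, were called lower. Of 15 markers of red pulp macrophages and monocytes, 13 were called lower and 1 higher, and the sum of the list was 973.6 to 1038 FPKM in MWA+PBS against 218.8 to 238.2 in MWA+2DG. Spic, which defines red pulp macrophages, averaged 13.4 and 2.92 FPKM. Ccr2 and Ly6c2 were the 2 genes of the list not called lower. Ccr2 averaged 11.57 and 11.04 FPKM (log2 fold change -0.06, adjusted p = 0.491), and Ly6c2 64.9 and 86.5 (0.41, adjusted p = 0.00285), a call lost on rescaling to equal T cell marker levels. Both are named after their values were seen. Under that rescaling, 14 of the 15 markers of this list were called lower, beside 65.9% of all genes tested. Of 7 markers of mast cells and basophils, 6 were called lower, with sums of 95.7 to 123.5 and 26.5 to 27.6 FPKM, and Cpa3 averaged 16.8 and 3.88. Of 4 markers of megakaryocytes and platelets, 1 of them tested through its MWA+PBS values alone, 3 were called lower, with sums of 16.4 to 21.1 and 6.13 to 9.36. Pf4 averaged 5.29 and 2.12 FPKM, and Itga2b, which megakaryocytes share with early erythroid progenitors, 3.93 and 1.52.

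Other lists moved the opposite way, in a comparison where 22.3% of all genes tested were called higher and 17.1% lower. All 10 neutrophil markers were called higher, 2 of them tested through their MWA+2DG values alone, with sums of 58.1 to 84.3 FPKM in MWA+PBS against 1578 to 1759 in MWA+2DG, and S100a8 averaged 5.31 and 136.3. All 8 B cell markers tested were called higher, 5 of them tested through their MWA+2DG values alone, with sums of 9.61 to 10.5 and 53.0 to 58.2, and Cd79a averaged 1.22 and 12.5. With no filter, each of the 10 neutrophil and 10 B cell markers listed was called higher, beside 9.03% of all genes. Of 18 T cell markers, 17 were called higher, with sums of 2240 to 2405 and 3188 to 3444, and Cd3e averaged 97.3 and 127.0. Proliferation genes, which dividing erythroblasts also express, were lower: 19 of 20 were called, with sums of 253.3 to 276.0 and 163.7 to 173.3 FPKM, and Mki67 averaged 34.2 and 19.0. No gene of these marker lists was at 0 in all samples of a group. When samples were rescaled to equal T cell marker levels, the median of all genes moved from 0.05 to -0.37, and Cd3e had a log2 fold change of -0.11. There 65.9% of all genes tested were called lower and 4.21% higher. Of the T cell markers, 3 were called higher and 3 lower, and the neutrophil and B cell counts stayed at 10 and 8 called higher. Under that rescaling the members' log2 fold changes were between -2.64 (Hba-a1) and -1.46 (Alas2 and Epor).

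**Figure D5:**
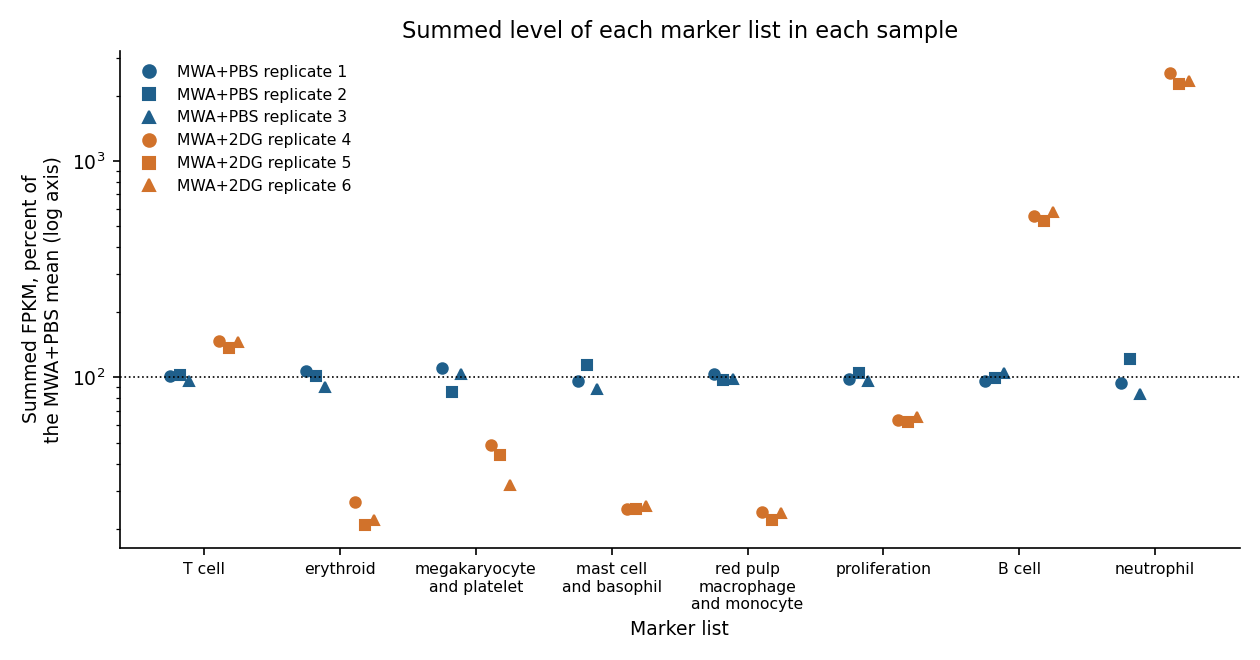
Summed FPKM of each marker list in each of the 6 samples, as a percent of the MWA+PBS mean of that list (log axis, dotted line at 100). The erythroid sum in MWA+2DG (orange) was between 20.8% and 26.5% of the MWA+PBS mean, beside 21.9% to 23.9% for the list of red pulp macrophages and monocytes, in which the monocyte genes Ccr2 and Ly6c2 were not lower, and 136.3% to 147.2% for T cells.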

How the data were processed

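The deposited FPKM values of 6 samples were analysed, 3 MWA+PBS and 3 MWA+2DG, grouped by their labels. Quality control by the authors used fastp, alignment HISAT2, and StringTie with ballgown gave FPKM per transcript length and mapped fragments. The submitters' processing notes name cutadapt 1.9, HISAT2 2.0.4, UMI-tools, StringTie 1.3.4d and mm9, without saying at which step. How multi-mapping reads were treated is not stated, which bears on the near-identical globin pairs.

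Symbols came from GENCODE M21 and matched 28689 of 28773 IDs. Genes with a mean FPKM of at least 1 (12444) were fitted as log2(FPKM + 1) with limma 3.58.1 in R 4.3.3 (lmFit, eBayes with a trend), two-sided, without covariates. The fit was tested on simulated data. The members and gene lists were chosen with earlier results of these data known. Named genes were the members, in each erythroid list the 2 lowest and 2 highest log2 fold changes among called genes (all called genes where 5 or fewer were called), the 3 profiles most like Hbb-bs, Alas2 and Klf1, and 12 marker genes. A gene of the membrane list that this rule names is not reported here. Some listed symbols (Ahsp among them) were not matched and are not analysed here. Start and coding sequences are of GRCm38, and no coordinate of the deposited files was used. Alternatives were a pseudocount of 0.1, other filters, 4 rescalings, 2 other limma settings and leaving out each sample.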

Additional observations from a re-analysis of the deposited data

How the results depend on the processing

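Each of the 131 values that the 9 genes took under the 15 alternatives kept its direction and its call, with a highest adjusted p of 0.00312 in the limma fits. The 4 genes below 5 FPKM could not be tested at a mean FPKM of at least 5, so the count of called members was 5 there. Genes past an adjusted p under 0.05 numbered 4907, or 2951 at a mean of at least 5 FPKM and 8727 after rescaling to the T cell marker list, which lowered the median of all genes from 0.05 to -0.37 and made 94.0% of the calls lower, against 43.5% as deposited. Genes past P under 0.05 and a log2 fold change beyond 0.25 numbered 4752, or 2562 and 8296 under the same changes and 627 with a log2 fold change beyond 1. Rescaling to the T cell list raised the genes called lower to 65.9% of all genes tested, from 17.1%, and to 16 in heme synthesis, 8 in the membrane list, 16 among transcription factors, 12 in the erythropoietin receptor pathway, 16 in erythroblast maturation and 2 among carbonic anhydrases, and left 0 called higher in each erythroid list, against 2 in heme synthesis, 3 in maturation and 1 each in iron handling, the erythropoietin receptor pathway, carbonic anhydrases and heme breakdown as deposited. The direction turned there for Ireb2 (-0.08), Bcl2l1 (-0.15), Isg20 (-0.00494), Bpgm (-0.06), Hp (-0.11), Ctse (-0.31) and Cd3e (-0.11). With no filter, where 9.27% of all genes were called lower, the lists held 6 called lower in heme synthesis, 15 in the membrane list, 17 in maturation and 2 among carbonic anhydrases. At a mean of at least 5 FPKM, where 15.9% were called lower, they were 2 of the 3 still tested in the membrane list, 5 of 12 transcription factors, 5 of 13 maturation genes and 0 of 1 carbonic anhydrase. Leaving out each sample in turn gave 5 to 8 in heme synthesis. The globin share without mitochondrial genes was 0.131% in MWA+PBS against 0.0304% in MWA+2DG, and the higher gene of each pair alone gave alpha to beta ratios of 1.08 and 0.956. No paired analysis was possible because the replicates are numbered 1 to 3 in one group and 4 to 6 in the other and share no number. Depth is unknown, so values below 1 FPKM have an unknown counting error.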
